A study of Mus musculus with 6 samples.

Results

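Receptors through which leukocytes sense chemoattractants were examined in the mouse macrophage line RAW264.7. The 7 genes were taken from the deposited table of 56636 genes by their names: Cx3cr1, Ccr1, Ccr2, Cxcr4, C3ar1, C5ar1 and Gpr183, each present in 1 row. Of these, 4 (Cx3cr1, C3ar1, C5ar1 and Gpr183) averaged 1 TPM or more and were tested among 12092 genes. The other 3 (Ccr1, Ccr2 and Cxcr4) stayed under that level and are given by their values only. TPM is the number of reads per transcript length, scaled so that all libraries have an equal total.

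RAW264.7 is an established, virus-transformed mouse macrophage-like line, which the labels call wild type. It was grown in serum-containing medium and given either a compound abbreviated as 25-HC in the labels (3 libraries) or its vehicle (3 libraries) for 24 h. The labels give neither its dose nor its full name. The study, per its title, concerns cholesterol homeostasis and tumor metastasis, and the comparison is of macrophages given 25-HC with macrophages given vehicle. The labels do not say whether libraries are from separate cultures, and p-values measure the spread between libraries, which may be technical. In bulk RNA, fewer cells that express a gene and less of its RNA per cell cannot be told apart.

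Chemoattractant receptors couple to inhibitory G proteins and steer cell migration along gradients of their ligands. CX3CR1 binds fractalkine, a membrane-bound chemokine, and marks patrolling monocytes and many tissue macrophages. CCR1 and CCR2 bind inflammatory CC chemokines, and CCR2 drives the exit of monocytes from bone marrow. CXCR4 binds CXCL12 and retains leukocytes in marrow. C3AR1 and C5AR1 sense the small fragments released from complement C3 and C5. GPR183, also called EBI2, senses an oxysterol made from cholesterol by the enzymes CH25H and CYP7B1.

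The libraries were uneven, which touches every value that follows. The 3 libraries of 25-HC had 11971 to 12005 genes at 1 TPM or more. Vehicle 1, 2 and 3 had 11238, 9492 and 11994. Longer transcripts were low in vehicle 1 and 2. For the longest sixth of the tested genes, the median log2 difference of the 25-HC mean from the library was 0.78 for vehicle 1, 1.63 for vehicle 2 and -0.039 for vehicle 3. Over all tested genes the median log2 difference between 25-HC and vehicle was 0.52, so differences of the receptors are also given relative to it. Macrophage identity genes were present, with a summed level of 4368 to 4414 TPM in 25-HC and 2996 to 4170 TPM in vehicle over 16 genes. Of these Mertk, an efferocytosis receptor, was listed at 0 in all 6 libraries. Markers of other cells were near 0 in both groups. Neutrophil markers (8 genes, Camp at 0) summed to 0.62 to 3.8 TPM in 25-HC and 0.82 to 2.98 TPM in vehicle. Dendritic cell markers (5 genes, none at 0 throughout) summed to 0.61 to 1.58 TPM in 25-HC and 0.45 to 1.67 TPM in vehicle. Lymphocyte markers (7 genes) reached at most 0.73 TPM, fibroblast markers (4 genes, Pdgfra at 0) 0.47 TPM and epithelial markers (4 genes) 0.23 TPM in any library. All 3 mast cell markers were listed at 0.

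The 4 tested receptors divided in 2 directions. Transcripts of the fractalkine receptor Cx3cr1 were lower in all 3 libraries of 25-HC than in any of vehicle, at 0.556 of the vehicle mean. Transcripts of both complement receptors and of Gpr183 lay higher in all 3 libraries of 25-HC than in any of vehicle, at 3.14 times the vehicle mean for C3ar1, 3.23 times for C5ar1 and 1.90 times for Gpr183. None of the 4 passed limma after Benjamini-Hochberg adjustment over all tested genes (adjusted p = 0.389 for each). That test called 0.00827% of all tested genes higher (1 gene) and 0.0% lower. At an unadjusted p under 0.05, limma counted 996 genes higher (8.24%) and 356 lower (2.94%), among them C3ar1 and C5ar1 in the upward direction and Cx3cr1 in the downward one. The separation of the groups, which 3 tested receptors showed upward and 1 downward, was shown upward by 22.6% of all tested genes and downward by 8.1%. After median-ratio rescaling of the libraries these backgrounds were 18.4% and 18.1%, and the 4 receptors still separated in the same directions. Deposited values of the 4 receptors and of Ccr1 are plotted by library.

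**Figure D1:**
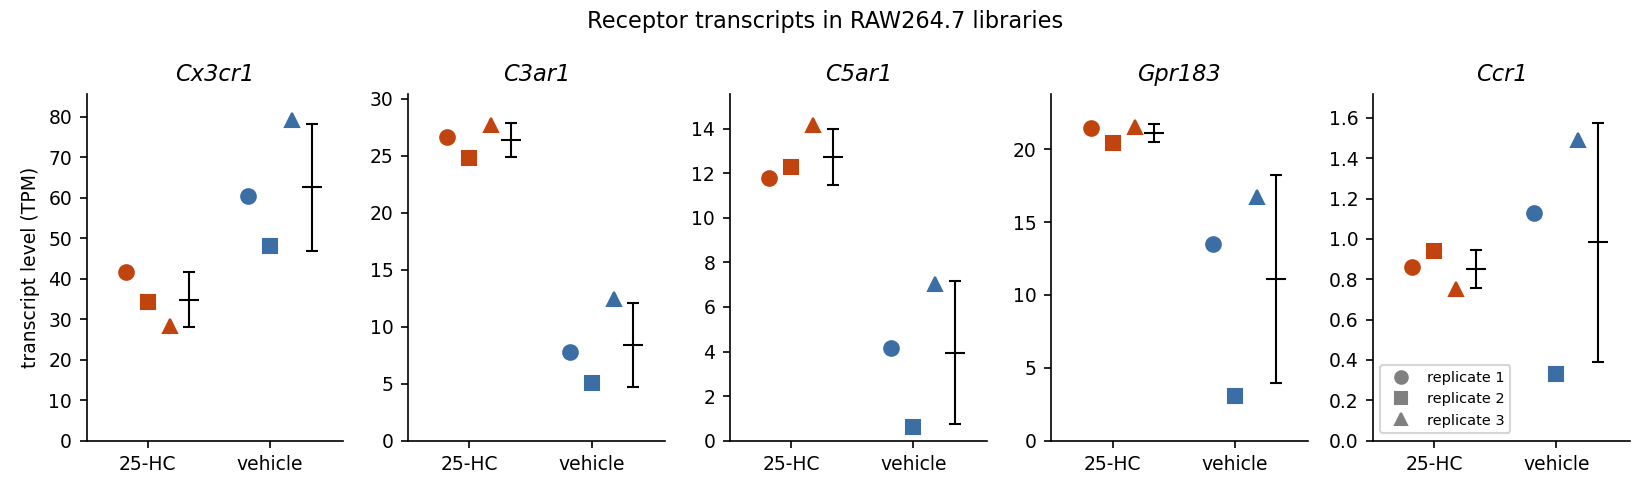
Transcript level in TPM (linear axes from 0) of 5 receptors in 25-HC (left) and vehicle (right) libraries of RAW264.7. Circles, squares and triangles are replicates 1, 2 and 3, and the bars give the mean ± SD (n = 3 each); the groups do not overlap for Cx3cr1, C3ar1, C5ar1 and Gpr183 and overlap for Ccr1.

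The stretches of 250 bases before the transcription start of these 4 genes are shown because the genes carry the differences described here. All 7 receptors had an entry in the RefSeq promoter table, whose build is GRCm38.p6, whereas the submitters' processing notes name GRCm39 for the expression table. The stretches are chr9:120068297-120068546 for Cx3cr1, chr6:122856158-122856407 for C3ar1, chr7:16259339-16259588 for C5ar1 and chr14:121965194-121965443 for Gpr183, all on the minus strand and written 5′ to 3′. Capitals mark matches, on either strand, to any of 8 short motifs.
Cx3cr1: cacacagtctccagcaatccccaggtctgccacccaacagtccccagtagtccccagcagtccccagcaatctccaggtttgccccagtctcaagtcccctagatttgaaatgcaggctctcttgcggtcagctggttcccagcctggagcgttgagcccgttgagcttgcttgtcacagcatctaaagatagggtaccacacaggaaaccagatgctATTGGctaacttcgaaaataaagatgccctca
C3ar1: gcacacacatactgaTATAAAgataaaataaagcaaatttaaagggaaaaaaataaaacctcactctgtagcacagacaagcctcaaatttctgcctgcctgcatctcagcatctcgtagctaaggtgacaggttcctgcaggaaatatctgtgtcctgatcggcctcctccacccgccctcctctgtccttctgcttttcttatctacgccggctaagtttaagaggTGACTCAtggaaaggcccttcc
C5ar1: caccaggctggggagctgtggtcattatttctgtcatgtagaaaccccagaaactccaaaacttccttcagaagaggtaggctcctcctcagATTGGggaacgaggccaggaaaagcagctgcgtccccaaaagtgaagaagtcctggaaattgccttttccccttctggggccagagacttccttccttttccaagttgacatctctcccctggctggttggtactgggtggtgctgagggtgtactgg
Gpr183: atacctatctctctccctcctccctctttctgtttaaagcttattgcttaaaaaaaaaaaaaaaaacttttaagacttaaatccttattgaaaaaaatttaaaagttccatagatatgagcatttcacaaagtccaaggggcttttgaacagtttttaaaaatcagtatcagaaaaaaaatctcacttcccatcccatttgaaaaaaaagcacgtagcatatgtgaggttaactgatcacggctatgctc

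The motifs searched, with the share of all 32536 distinct promoter stretches of the same length that hold them, were as follows. The core GAGGAA of PU.1-type ETS factors was in 23.4% of all stretches and among the 7 receptors in that of Ccr1 only. The CCAAT box, CCAAT, was in 33.8% of all stretches, and it was found on the opposite strand 28 to 32 bases before the start of Cx3cr1 and 154 to 158 bases before that of C5ar1. The AP-1 letters TGAGTCA or TGACTCA were in 4.45% of all stretches and lay 16 to 22 bases before the start of C3ar1. The TATA letters TATAAA were in 12.3% of all stretches, and those of C3ar1 lay 230 to 235 bases before its start, while the stretch of Cxcr4 held them as well. The 4 other motifs had no match in the 7 receptors: the IRF repeat, GAAA and GAAA with NN between (2.98% of all stretches), the ETS-IRF composite, GGAA and GAAA with NN between (2.31%), the sterol regulatory element TCACCCCA (1.36%), and the LXR direct repeat, AGGTCA and AGGTCA with NNNN between (0.0154%). A match is a run of letters and not a shown binding site. GC content differed between the stretches, at 53.6% for Cx3cr1, 45.6% for C3ar1, 52.8% for C5ar1 and 32% for Gpr183, against a median of 52.4% over all stretches. They held 2 to 5 CpG dinucleotides each, against a median of 6.

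Cx3cr1 (ENSMUSG00000052336), the fractalkine receptor, was the most abundant of the 7 in every library. It stood at 41.8, 34.4 and 28.2 TPM in 25-HC 1, 2 and 3, against 60.5, 48.0 and 79.1 TPM in vehicle 1, 2 and 3. The highest treated library lay below the lowest vehicle library, which was vehicle 2. The means were 34.8 ± 6.77 TPM in 25-HC and 62.6 ± 15.7 TPM in vehicle (SD, n = 3 each). On the log2(TPM + 1) scale, limma gave a difference of -0.82 (SE 0.29, unadjusted p = 0.028, adjusted p = 0.389), or -1.34 relative to the median of all genes. Of the 12092 tested genes, 506 had a lower difference. Vehicle 2, where most genes were low, held Cx3cr1 close to its level in the other vehicle libraries, with a ratio of 1.65 between the highest and the lowest vehicle library. The same ratio was 2.44 for C3ar1, 5.40 for Gpr183 and 11.4 for C5ar1.

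Cx3cr1 lay against the trend with transcript length. Its longest annotated transcript, in GENCODE release M21, has 4493 bases and falls in the fifth of 6 length classes of tested genes. That class of 1855 genes had a median difference of 0.75 (log2), and 1.24% of its genes had a lower difference than Cx3cr1. Set against single vehicle libraries, the 25-HC mean of Cx3cr1 differed by -0.80 from vehicle 1, -0.47 from vehicle 2 and -1.18 from vehicle 3 on the log2 scale. The medians of its length class were 0.62, 1.64 and -0.076. After median-ratio rescaling Cx3cr1 was at 27.6 ± 5.28 TPM in 25-HC and 78.8 ± 30.2 TPM in vehicle (SD, n = 3 each). Rescaled vehicle 1, 2 and 3 stood at 62.6, 113.6 and 60.1 TPM, so vehicle 2, the lowest as deposited, became the highest. The log2 difference after rescaling was -1.43, more than 1.5 times that of the deposited values. After correction for transcript length the difference was -1.53, and neither setting passed the adjusted test (limma adjusted p = 0.286 and 0.144).

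Among the treated libraries, Cx3cr1 was also the least even of the tested receptors. Its coefficient of variation in 25-HC was 19.5%, against 5.62% for C3ar1, 9.85% for C5ar1 and 2.99% for Gpr183. Of 5133 tested genes with a mean between 10 and 100 TPM, 94.5% had a smaller coefficient of variation in 25-HC than Cx3cr1, and the median was 4.89%.

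Ccr1 (ENSMUSG00000025804), which binds CCL3, CCL5 and related chemokines, was near the lower limit of use. It stood at 0.86, 0.94 and 0.75 TPM in the 25-HC libraries, against 1.13, 0.33 and 1.49 TPM in the vehicle libraries. The groups overlapped because vehicle 2 lay below all treated libraries. Against vehicle 3 alone the treated mean was 0.57 of the vehicle value. After median-ratio rescaling Ccr1 was at 0.677, 0.755 and 0.593 TPM in 25-HC and at 1.17, 0.780 and 1.13 TPM in vehicle, so that the groups no longer overlapped and 25-HC was lower. The gap, from 0.755 to 0.780 TPM, was narrow, and 18.1% of all tested genes separated downward after that rescaling. Ccr1 was left out of the limma test of the deposited values by the level filter, since its mean was 0.917 TPM. Its test in the setting with no filter is not given here.

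Ccr2 (ENSMUSG00000049103) and Cxcr4 (ENSMUSG00000045382), the receptors that release monocytes from marrow and retain them there, were barely detected. Ccr2 was listed at 0, 0.06 and 0.11 TPM in 25-HC and at 0.01, 0 and 0.03 TPM in vehicle. Cxcr4 was listed at 0.03 TPM in 25-HC 2 and at 0 in the 5 other libraries. No fold is given for either, because the table keeps no counts and a listed 0 can be a failed estimate.

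C3ar1 (ENSMUSG00000040552), the receptor of the complement fragment C3a, was the second most abundant receptor in 25-HC. It was at 26.7, 24.8 and 27.7 TPM in 25-HC 1, 2 and 3, against 7.77, 5.08 and 12.4 TPM in vehicle 1, 2 and 3. The lowest treated library had more than the highest vehicle library, vehicle 3, with no overlap. Means were 26.4 ± 1.48 TPM in 25-HC and 8.41 ± 3.70 TPM in vehicle (SD, n = 3 each). The log2 difference was 1.61 (SE 0.35, unadjusted p = 0.00338, adjusted p = 0.389 by limma), or 1.09 relative to the median of all genes, and 95.4% of tested genes had a lower one. Its longest transcript, of 4305 bases, is in the same length class as that of Cx3cr1. Against vehicle 1, 2 and 3 singly the difference was 1.64, 2.17 and 1.03. It was smaller after median-ratio rescaling, at 1.03, and after correction for transcript length, at 0.91 (limma adjusted p = 0.274 and 0.148). Without vehicle 3 the limma test of C3ar1 passed (log2 difference 1.91, adjusted p = 0.0447, higher in 3 of 3 treated libraries), where 5.55% of all genes were called higher. With vehicle 3 as the lone vehicle library, assumed to vary like the treated ones, it passed as well (1.03, limma adjusted p = 0.0261), where 4.52% were called higher.

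C5ar1 (ENSMUSG00000049130), the receptor of the complement fragment C5a and a strong phagocyte attractant receptor, was lower in level. It was at 11.8, 12.3 and 14.2 TPM in the 25-HC libraries, against 4.17, 0.62 and 7.04 TPM in the vehicle libraries. The groups did not overlap, and vehicle 2 stood far below the others. Its means were 12.7 ± 1.25 TPM in 25-HC and 3.94 ± 3.22 TPM in vehicle (SD, n = 3 each). The log2 difference of 1.75 (SE 0.61, unadjusted p = 0.0263, adjusted p = 0.389 by limma) was 1.23 relative to the median of all genes. It was 1.09 without vehicle 2 and 0.77 against vehicle 3 alone, where the treated mean was 1.81 times the vehicle value.

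Gpr183 (ENSMUSG00000051212), the oxysterol receptor, had the smallest difference of the 3 higher receptors. It was at 21.4, 20.4 and 21.6 TPM in 25-HC, against 13.5, 3.09 and 16.7 TPM in vehicle. The treated libraries were close together and above all vehicle libraries. The means were 21.1 ± 0.632 TPM in 25-HC and 11.1 ± 7.11 TPM in vehicle (SD, n = 3 each). Its log2 difference was 1.12 (SE 0.58, unadjusted p = 0.0981, adjusted p = 0.389 by limma), or 0.60 relative to the median of all genes. Without vehicle 2 it was 0.47, and against vehicle 3 alone it was 0.32, where the treated mean was 1.27 times the vehicle value. After median-ratio rescaling it was 0.57 and after correction for transcript length 0.58 (limma adjusted p = 0.298 and 0.273). Of all tested genes, 83.1% had a lower difference than Gpr183 on the deposited values.

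The order of the receptors by level differed between the groups in 1 place. In the 3 treated libraries Cx3cr1 was followed by C3ar1, Gpr183, C5ar1 and Ccr1. In vehicle 1 and 3, Gpr183 stood above C3ar1, and in vehicle 2 below it. The vehicle ranges of Gpr183 and C3ar1 overlapped, as did those of C3ar1 and C5ar1 and those of C5ar1 and Ccr1. In 25-HC the ranges of neighbours did not overlap, although the lowest value of Cx3cr1, 28.2 TPM, was close to the highest of C3ar1, 27.7 TPM.

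Summed over the 7 receptors, the transcript level was 92.5 to 102.5 TPM in 25-HC and 57.2 to 116.8 TPM in vehicle, with overlap. The shares of 4 receptors in that sum did not overlap between groups, while those of Ccr1, Ccr2 and Cxcr4 did. Cx3cr1 took 40.7%, 37.0% and 30.5% of it in 25-HC 1, 2 and 3, against 69.5%, 84.0% and 67.8% in vehicle 1, 2 and 3. C3ar1 took 26.0% to 29.9% in 25-HC and 8.89% to 10.6% in vehicle. C5ar1 took 11.5% to 15.3% in 25-HC and 1.08% to 6.03% in vehicle, and Gpr183 took 20.9% to 23.3% in 25-HC and 5.41% to 15.5% in vehicle. Shares re-express the levels given above, and the lower share of Cx3cr1 follows from them, so no test is given. How often shares of other genes separate in this way was not computed.

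**Figure D2:**
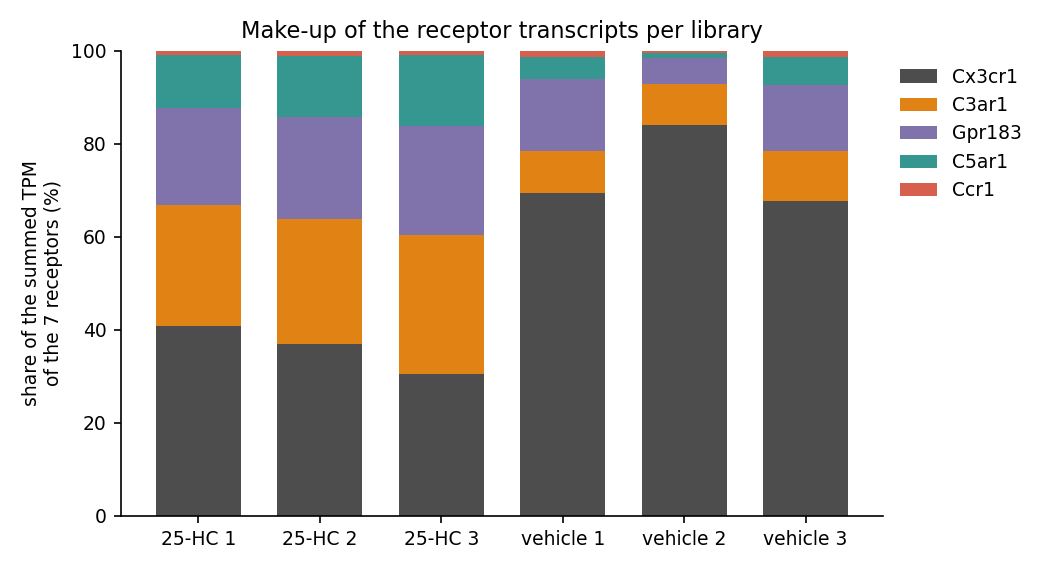
Share (%) of each receptor in the summed TPM of the 7 receptors, for each 25-HC (left) and vehicle (right) library; Ccr2 and Cxcr4 are too small to draw. Cx3cr1 makes up 30.5% to 40.7% in 25-HC and 67.8% to 84.0% in vehicle. The shares re-express the levels of the receptors.

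Ratios of 2 transcripts within a library do not depend on the scaling of that library. They are not free of the trend with transcript length where the 2 lengths differ. They were chosen after the values had been seen, and 7 of them were computed. The ratio of C3ar1 to Cx3cr1 was 0.639, 0.720 and 0.981 in the 25-HC libraries, against 0.128, 0.106 and 0.157 in the vehicle libraries. The mean ratio was 5.99 times as high in 25-HC, and the vehicle libraries, vehicle 2 included, lay close together. For C5ar1 to Cx3cr1 the ratio was 0.282 to 0.502 in 25-HC and 0.0129 to 0.0890 in vehicle. For Gpr183 to Cx3cr1 it was 0.513 to 0.764 in 25-HC and 0.0643 to 0.223 in vehicle. Ccr1 to Cx3cr1 was separated by less, at 0.0206 to 0.0273 in 25-HC and 0.00687 to 0.0188 in vehicle. Each of these 4 ratios was higher in every treated library. For C3ar1, C5ar1 and Gpr183 this follows from their levels, which did not overlap and lay in the opposite direction to Cx3cr1, so no test is given. Among the 3 higher receptors, C5ar1 to Gpr183 was separated as well (0.550 to 0.657 in 25-HC, 0.201 to 0.422 in vehicle). C3ar1 to C5ar1 and C3ar1 to Gpr183 overlapped between groups. The share of other gene pairs whose ratios separate was not computed.

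**Figure D3:**
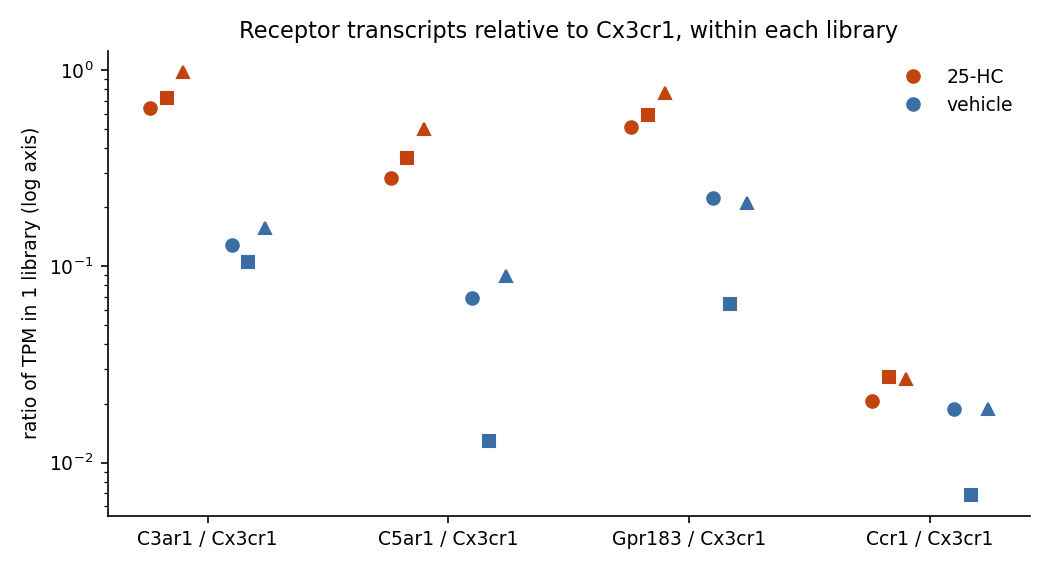
Ratio of TPM of each receptor to Cx3cr1 within a library (log axis), 25-HC left of vehicle. Circles, squares and triangles are replicates 1, 2 and 3; in all 4 ratios the treated libraries lie above the vehicle libraries.

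Ranks within a library re-express the same values and need no scaling. They are not free of the trend with transcript length, which can reorder genes within a library. Among the 12092 tested genes Cx3cr1 stood at percentiles 67.8 to 75.7 in the 25-HC libraries and 84.0 to 86.1 in the vehicle libraries. C3ar1 stood at percentiles 65.1 to 67.5 in 25-HC and 46.1 to 54.4 in vehicle. C5ar1 was at 46.7 to 51.2 in 25-HC and 17.9 to 34.2 in vehicle, and Gpr183 at 60.6 to 61.7 in 25-HC and 44.7 to 57.9 in vehicle. The groups did not overlap for any of the 4. The share of all tested genes whose ranks separate in this way was not computed.

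Under 19 other settings, Cx3cr1 stayed lower and C3ar1, C5ar1 and Gpr183 stayed higher in 25-HC, without overlap between the libraries used. The range of the log2 difference was -1.53 to -0.64 for Cx3cr1, 0.91 to 1.91 for C3ar1, 0.77 to 2.24 for C5ar1 and 0.32 to 1.52 for Gpr183. Limma called C3ar1 in the 2 settings named above and none of the other 3 receptors in any. These settings use the same libraries and are not independent of each other. When each library was centred on its median macrophage identity gene, the differences were -1.20 for Cx3cr1, 1.23 for C3ar1, 1.37 for C5ar1 and 0.74 for Gpr183 (limma adjusted p = 0.121, 0.0687, 0.0687 and 0.145).

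**Figure D4:**
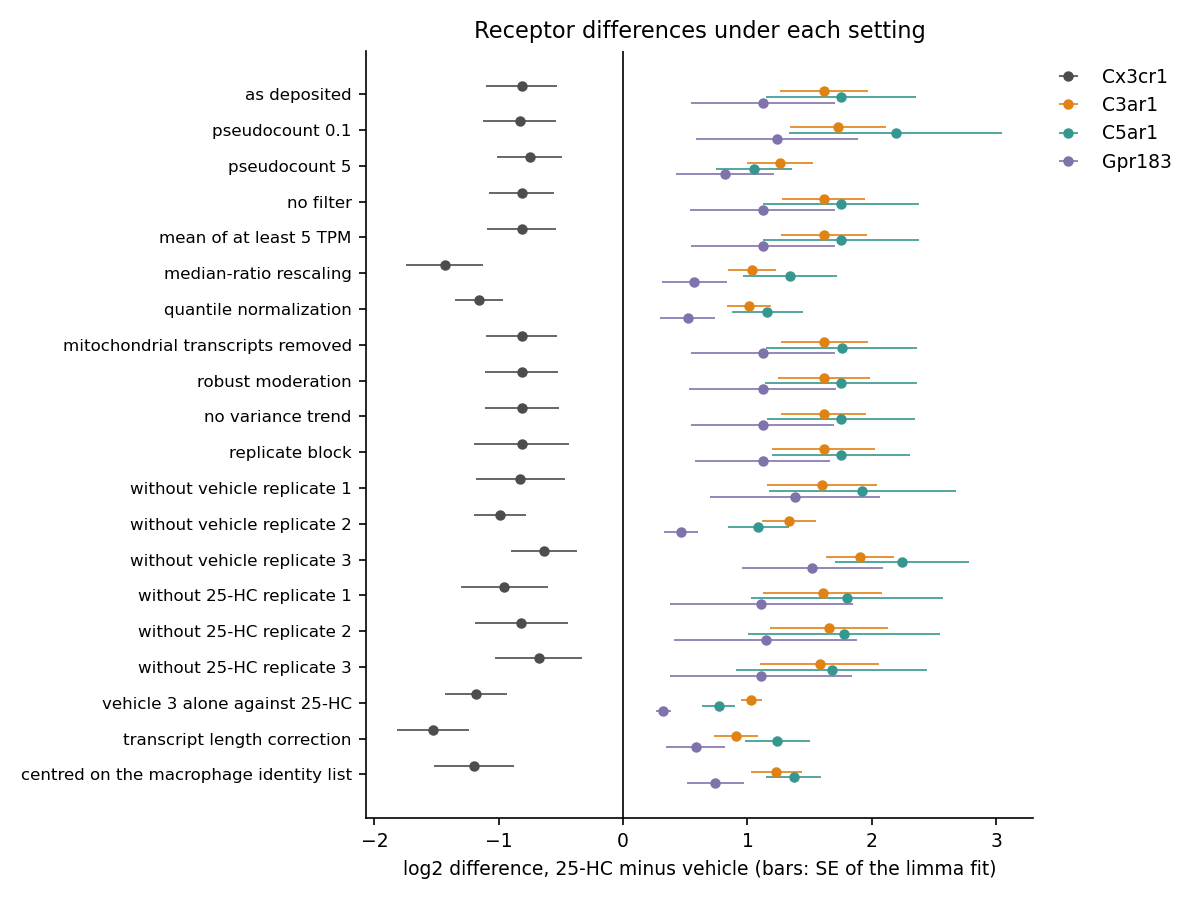
Difference on the log2 scale, 25-HC minus vehicle, of the 4 tested receptors (x axis) as deposited and under 19 other settings (rows). Points are limma estimates and bars their SE. Cx3cr1 lies below 0 and the other 3 receptors above 0 in each row. Signs could have changed only in rows that rescale, centre or correct the libraries.

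Transcripts whose pattern over the 6 libraries was most like that of each receptor were found among 8441 other genes that averaged 5 TPM or more, by Pearson r of log2(TPM + 1). For Cx3cr1 they were Gnl1 (r = 0.991), Mrpl38, a mitochondrial ribosomal protein gene (0.981), and an assembled transcript named MSTRG.8181 (0.980), and 10 genes had r above 0.95. Pearson r does not measure the size of a difference. Gnl1 was at 31.6, 29.9 and 29.4 TPM in 25-HC, against 34.5, 32.2 and 37.1 TPM in vehicle, closer together than Cx3cr1. For C3ar1 they were Cyp51, an enzyme of cholesterol synthesis (0.999), Insig1, which retains the SREBP complex in the endoplasmic reticulum (0.999), and Hsp90aa1, a heat shock chaperone (0.998), with 310 genes above 0.95. Cyp51 was at 35.6, 31.3 and 37.0 TPM in 25-HC, against 4.98, 1.91 and 10.1 TPM in vehicle. Insig1 was at 35.0, 31.3 and 32.5 TPM in 25-HC, against 3.8, 1.64 and 8.32 TPM in vehicle. For C5ar1 they were Dhx58, an RNA sensor (0.999), Slc7a7, an amino acid transporter (0.999), and Lonrf3 (0.999), with 2077 genes above 0.95. For Gpr183 they were Ubb-ps, Rnd1 and Prpsap2 (each 0.999), with 3539 genes above 0.95. The genes share the same 6 libraries, 2 of which carry the trend with transcript length described above, and its part in these values of r was not tested.

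Most other chemoattractant receptors were low or listed at 0. Of 29 listed, 9 averaged 1 TPM or more and 6 (Ccr6, Ccr9, Cxcr1, Ackr1, Cmklr1 and Fpr1) were listed at 0 in all libraries. None of the 9 passed limma after adjustment. Their median log2 difference was 0.83, against 0.52 for all tested genes. Upward separation was seen for 6 of them and downward separation for none, beside 22.6% and 8.1% of all tested genes. After median-ratio rescaling the counts were 4 and 1, beside 18.4% and 18.1% of all genes, and the median was 0.25. Without vehicle 2 the median was 0.50.

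Among these, S1pr1, the sphingosine 1-phosphate receptor that guides lymphocyte exit, was at 2.12, 1.99 and 2.29 TPM in 25-HC, against 0.26, 0.03 and 0.74 TPM in vehicle (log2 difference 1.25, limma adjusted p = 0.389). Ccrl2, an atypical receptor that binds chemerin, was at 4.29 ± 0.175 TPM in 25-HC and 1.61 ± 0.930 TPM in vehicle (SD, n = 3 each). Ptafr, the receptor of platelet-activating factor, was at 9.95, 9.75 and 10.2 TPM in 25-HC, against 3.23, 1.2 and 6.98 TPM in vehicle. In these 3 receptors the groups did not overlap, also after rescaling. Gpr132, a lipid- and acid-sensing receptor, was at 17.4 ± 1.17 TPM in 25-HC and 9.54 ± 2.80 TPM in vehicle, with overlap after rescaling. These and 4 more of the 9 are plotted by library.

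**Figure D5:**
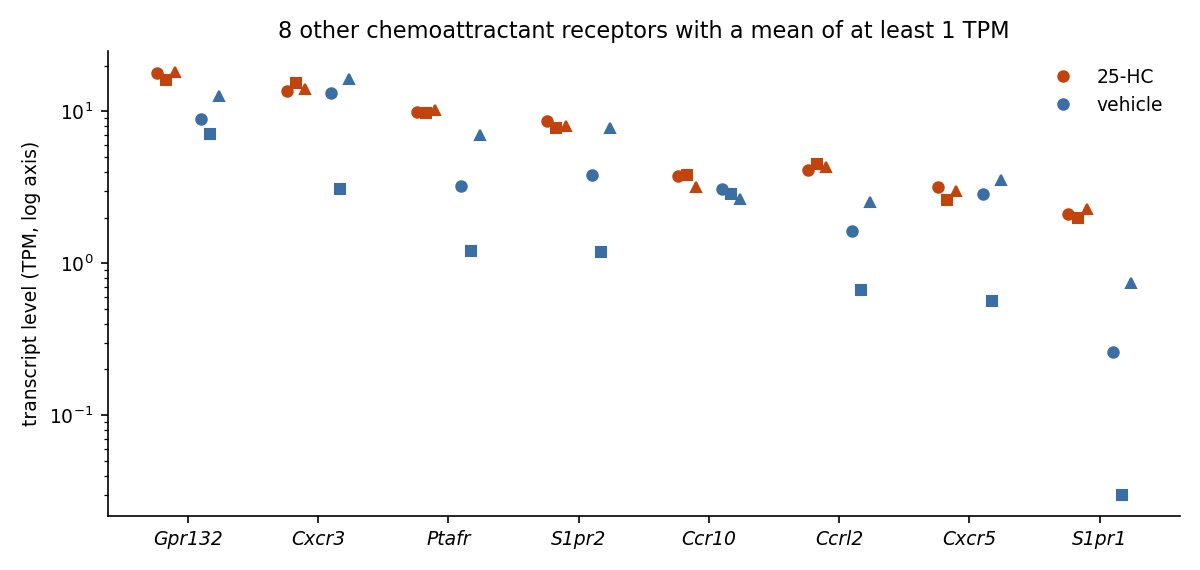
Transcript level in TPM (log axis) of 8 other chemoattractant receptors averaging 1 TPM or more, 25-HC left of vehicle, with circles, squares and triangles for replicates 1, 2 and 3. S1pr1, Ccrl2, Ptafr, Gpr132, S1pr2 and Ccr10 lie above all vehicle libraries in all treated ones, and Cxcr3 and Cxcr5 overlap.

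Ligands and their precursors were not called either. Of 13 listed, 9 were tested, with a median log2 difference of 0.20, 2 separated upward and 1 downward, shares close to the 22.6% and 8.1% of all tested genes. After median-ratio rescaling the median was -0.21, with 3 separated each way, beside 18.4% and 18.1% of all genes. The median was 0.11 without 25-HC 2 and likewise without vehicle 2, 0.40 without vehicle 1 and 0.43 without vehicle 3. Ccl5, a ligand of CCR1, was lower in 25-HC at 13.6, 15.1 and 13.1 TPM, against 27.9, 38.0 and 20.3 TPM in vehicle (log2 difference -0.95, SE 0.31, limma adjusted p = 0.389). The groups of Ccl5 did not overlap, as deposited or rescaled. C3, the precursor of the C3AR1 ligand, was at 1.78 ± 0.104 TPM in 25-HC and 0.693 ± 0.422 TPM in vehicle (SD, n = 3 each), without overlap. Ccl2, the main ligand of CCR2, was at 550.3, 539.5 and 560.1 TPM in 25-HC, against 390.6, 44.6 and 502.9 TPM in vehicle. Fractalkine itself, Cx3cl1, was uneven at 1.6, 0.18 and 0 TPM in 25-HC and 0.02, 3.28 and 2.69 TPM in vehicle. Hc, the gene of complement C5, was listed at 0 throughout, and Cxcl12, the ligand of CXCR4, reached at most 0.02 TPM.

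Enzymes that make and break the oxysterol ligand of GPR183 were partly listed at or near 0. Ch25h was listed at 0 in all libraries and Cyp7b1 reached 0.03 TPM in vehicle 2 only. Hsd3b7, which degrades the ligand, was at 10.7 ± 1.35 TPM in 25-HC and 5.68 ± 3.51 TPM in vehicle (SD, n = 3 each). Cyp27a1, a sterol 27-hydroxylase, was at 36.7 ± 0.710 TPM in 25-HC and 18.5 ± 7.52 TPM in vehicle. Both were higher in every treated library as deposited, beside 22.6% of all tested genes, and rescaled, beside 18.4%, and neither passed limma (adjusted p = 0.389 for both).

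Of the proteases that process membrane fractalkine, Adam17 was at 34.4, 31.0 and 35.6 TPM in 25-HC, against 7.90, 0.56 and 24.7 TPM in vehicle. Ctss, a cathepsin, was at 464.0 ± 9.01 TPM in 25-HC and 241.9 ± 156.1 TPM in vehicle (SD, n = 3 each). Of 3 tested genes of this group, which also holds Adam10, 2 separated upward, beside 22.6% of all tested genes. After median-ratio rescaling all 3 separated upward, beside 18.4% of all tested genes. None passed the adjusted test. Their median log2 difference was 1.26 as deposited, 0.64 after rescaling and 0.35 against vehicle 3 alone.

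Signal transducers downstream of the receptors centred on a log2 difference of 0.61 (median) over 21 tested genes of 24, close to the 0.52 of all genes, and of 0.11 without vehicle 2 and -0.11 against vehicle 3 alone. None passed, and 4 separated upward and none downward, or 4 and 2 after rescaling. Over all tested genes 22.6% separated upward and 8.1% downward, or 18.4% and 18.1% after rescaling, so the upward count was near that of all genes. Pik3cg, the catalytic subunit of the phosphoinositide 3-kinase driven by G protein beta-gamma subunits, was at 8.64 ± 0.291 TPM in 25-HC and 2.0 ± 2.15 TPM in vehicle (SD, n = 3 each). Rgs14, which speeds GTP hydrolysis by inhibitory G proteins, was at 10.6 ± 0.505 TPM in 25-HC and 3.81 ± 2.86 TPM in vehicle. Gnai3, an inhibitory G protein subunit, was at 27.1, 25.8 and 27.1 TPM in 25-HC, against 9.74, 1.55 and 24.8 TPM in vehicle. Rgs2, another regulator of G protein signalling, was at 8.60 ± 0.362 TPM in 25-HC and 4.95 ± 3.33 TPM in vehicle.

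Genes of the migration machinery, all 12 of them tested, centred on 0.90 (median log2 difference), or 0.28 after rescaling, 0.40 without vehicle 2 and 0.063 against vehicle 3 alone. None passed, and 5 separated upward and none downward, beside 22.6% and 8.1% of all tested genes. After rescaling the counts were 4 and 1, beside 18.4% and 18.1%. Dock2, the exchange factor for Rac in leukocytes, was at 13.4, 10.95 and 12.8 TPM in 25-HC, against 3.45, 0.93 and 6.11 TPM in vehicle. Its partner Elmo1 was at 15.8 ± 1.04 TPM in 25-HC and 4.72 ± 4.84 TPM in vehicle (SD, n = 3 each). Cdc42 and Rhoa, small GTPases that control the actin cytoskeleton, were separated by less from vehicle 3, where the treated means were 1.12 and 1.14 times its value.

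Macrophage identity genes centred on 0.67 (median log2 difference) over 14 tested genes, or 0.048 after rescaling and 0.11 without vehicle 2, and none passed. Upward separation was seen for 6 and downward for 1, beside 22.6% and 8.1% of all tested genes. After rescaling the counts were 3 and 3, beside 18.4% and 18.1%. The 1 gene separated downward as deposited was Cd68, which overlapped after rescaling. Its mean ± SD was 808.9 ± 9.70 TPM in 25-HC and 826.2 ± 9.35 TPM in vehicle. The 4 genes that follow have the smallest p among the separated genes, and all were higher as deposited. None of the 3 genes separated downward after rescaling is among these 4. Lgals3, which encodes galectin-3, was at 517.4 ± 14.4 TPM in 25-HC and 285.5 ± 28.4 TPM in vehicle (SD, n = 3 each), and Fcgr1, the high-affinity IgG receptor, at 34.9 ± 1.95 TPM in 25-HC and 17.9 ± 3.60 TPM in vehicle, and both overlapped after rescaling. Ptprc, the leukocyte common antigen, was at 6.75 ± 0.215 TPM in 25-HC and 1.88 ± 1.94 TPM in vehicle. Adgre1, a macrophage adhesion receptor, was at 16.5 ± 2.15 TPM in 25-HC and 5.77 ± 5.57 TPM in vehicle, and both kept their separation after rescaling.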

How the data were processed

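RNA was measured in 3 libraries per group, made with an Illumina TruSeq kit, per the labels' protocols. HISAT2, StringTie, RSEM and GRCm39 are named, without versions or order, in the submitters' processing notes. The annotation release was not stated there. The authors deposited TPM values per gene in 1 table, beside 11 empty columns. TPM keeps no counts, so depth is unknown and no counting interval is given.

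The 12092 genes averaging 1 TPM or more were compared by limma 3.58.1 (R 4.3.3) after adding a pseudocount of 1 and taking log2, with a trend in eBayes, two-sided p, Benjamini-Hochberg adjustment at 0.05 and no block. This scale understates changes of low genes, and folds are ratios of mean TPM. The procedure was run on simulated data, and the outcome is not given here. That run does not show how the procedure behaves when vehicle libraries are as uneven as these. Lengths are of the longest GENCODE M21 transcript (92.1% of tested genes; build GRCm38). The receptors and lists were chosen with earlier results of these data known. Named genes are the 7 receptors, up to 4 separated genes per other list in order of p, or else that with the smallest p, and the 3 genes most like each tested receptor; others were chosen after their values were seen. Some listed genes are not reported here. Deviations of same-numbered libraries from their group means correlated at -0.013, 0.056 and 0.030, so numbers were not taken as pairs. Alternatives covered scaling, filter, pseudocount, moderation, length and left-out libraries. Python 3.11.15, pandas 2.3.3, numpy 2.4.6 and matplotlib 3.10.9 were also used.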

Additional observations from a re-analysis of the deposited data

How the results depend on the processing

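Of the 19 settings tried, none turned the direction of Cx3cr1, C3ar1, C5ar1 or Gpr183 or ended their separation. Only the settings that rescale or centre the libraries or correct for length could have done so. C3ar1 passed limma without vehicle 3 (1.91; range 1.34 to 1.91 when 1 library was left out) and with vehicle 3 alone (1.03), so that 1 receptor was called higher with vehicle 3 alone and 0 to 1 when 1 library was left out. Ccr1 was at -0.43 against vehicle 3 alone, with no test. A replicate block, which treats equal replicate numbers as pairs, called 0 genes higher and changed no call among the receptors (Cx3cr1 at adjusted p = 0.415 by limma, the other 3 likewise).

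Over all genes, 1 was called higher and 0 lower as deposited. The numbers called higher were 0 with a pseudocount of 5, with no filter and with a mean of at least 5 TPM, 4 after quantile normalization, 16 after transcript length correction, 31 when centred on macrophage identity genes, 547 with vehicle 3 alone and 0 to 671 when 1 library was left out. Numbers called lower were 1 after median-ratio rescaling, 1 after quantile normalization, 3 after length correction, 3 when centred, 765 with vehicle 3 alone and 0 to 51 when 1 library was left out. Of the 19 settings, 671 higher and 51 lower came without vehicle 3, and 9 and 4 without vehicle 2. Separated genes were 2736 upward and 979 downward of 12092 tested as deposited. A mean of at least 5 TPM left 8442 genes to test, and length correction 11132. Separated genes were 1815 upward with a mean of at least 5 TPM, and 2851 to 7194 upward and 1116 to 2040 downward when 1 library was left out. Downward they were 2187 after median-ratio rescaling, 2092 after quantile normalization, 2083 after length correction, 507 when centred and 5525 with vehicle 3 alone. The cause was not tested.

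Medians of the other lists moved as follows. Other receptors (0.83 as deposited) were at 0.42 with a pseudocount of 5, 0.038 with no filter, 0.25 after median-ratio rescaling, 0.24 after quantile normalization, 0.32 with vehicle 3 alone and 0.26 after length correction. Ligands (0.20) were at 0.31 with a pseudocount of 0.1, 0.086 with 5, 0.069 with no filter, 0.46 with a mean of at least 5 TPM, -0.21 after median-ratio rescaling, -0.090 after quantile normalization, -0.022 with vehicle 3 alone, 0.0026 after length correction, -0.18 when centred and 0.11 to 0.43 when 1 library was left out. Migration genes (0.90) were at 0.28 after median-ratio rescaling, 0.063 with vehicle 3 alone, 0.37 after length correction and 0.40 to 1.32 when 1 library was left out. Macrophage identity genes (0.67) were at 0.048 after median-ratio rescaling, 0.11 without vehicle 2, 0.062 with vehicle 3 alone and 0.14 after length correction. Signalling genes (0.61) were at 0.015 after median-ratio rescaling, 0.11 without vehicle 2 and -0.11 with vehicle 3 alone. Calls in these lists, 0 as deposited, were 1 receptor, 1 ligand, 4 signalling, 1 migration and 5 macrophage genes with vehicle 3 alone, 1 signalling and 1 migration gene when centred, and at most 1 receptor, 2 signalling and 2 macrophage genes (0 to 2) when 1 library was left out. Depth is unknown, and Ccr1, Ccr2 and Cxcr4 are too low for a firm statement.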

Other observations

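Genes outside the naming rule, chosen after their values were seen, showed wide gaps between vehicle libraries. Itgam, an integrin chain of macrophages, was at 69.4, 62.4 and 71.4 TPM in 25-HC, against 12.5, 0.53 and 51.0 TPM in vehicle. Aif1, a calcium-binding protein of macrophages, was at 11.7, 8.52 and 9.47 TPM in 25-HC, against 18.3, 51.9 and 10.6 TPM in vehicle. Grk5, a kinase that desensitises G protein-coupled receptors, was listed at 6351, 6027 and 6307 TPM in 25-HC, against 2435, 16.4 and 6658 TPM in vehicle. Whether reads of that gene alone make up this row was not tested, and its level is given as listed. Rgs16, an inhibitor of G protein signalling, was at 0.69, 0.70 and 0.52 TPM in 25-HC, against 2.70, 0.10 and 5.32 TPM in vehicle, with overlap.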
